A study of Mus musculus with 6 samples.

Results

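The voltage-gated sodium and calcium channel genes were examined in the hippocampus of wildtype and miR-17-92 knockout mice. They were taken by symbol as the protein-coding genes for the sodium channel alpha and beta subunits and for the calcium channel alpha1, alpha2delta, beta and gamma subunits, with 1 gamma gene left out and not reported here. This gave 39 of the 37620 gene identifiers in the tables, namely 10 sodium alpha, 4 sodium beta, 10 calcium alpha1, 4 alpha2delta, 4 calcium beta and 7 gamma genes. Hippocampal RNA was sequenced from 3 wildtype and 3 knockout mice of the C57BL/6 strain at 13 weeks of age, with no litter giving more than 1 mouse. miR-17-92 is a cluster of microRNAs cut from a shared host transcript, Mir17hg. The labels give the genotype as wildtype or miR-17-92 knockout and name no other allele, driver or treatment. In which cells the cluster was deleted, and how completely, is not given in the sources used here.

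Sodium channel alpha subunits form the pore that opens at the start of an action potential, and beta subunits are membrane-spanning partners that tune gating and cell adhesion. In calcium channels the alpha1 subunit forms the pore and sets the current type, the alpha2delta and beta subunits carry the channel to the membrane, and most gamma subunits of the brain are better known as auxiliary subunits of AMPA receptors, called TARPs. In the hippocampus these channels set spike initiation at the axon initial segment, transmitter release from terminals and calcium entry into dendrites.

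Reads assigned to genes came to between 26439693 and 57246827 per library. The host transcript Mir17hg held 43, 47 and 36 reads in the wildtype libraries and 30, 35 and 37 in the knockout libraries, with an edgeR adjusted p of 0.813, and the 6 hairpin genes of the cluster held no read in any library. These counts do not check the genotype labels. Summed levels of 8 excitatory neuron markers lay between 7528 and 7782 CPM (read counts per gene relative to library size) in wildtype and between 7501 and 9004 in knockout libraries, and those of 8 interneuron markers between 757 and 783 over all 6. Camk2a made up most of the excitatory sum, with a mean of 5509 CPM in wildtype and 5986 in knockout libraries. Of the 8 excitatory markers 6 had a positive and 2 a negative log2 fold. All 8 astrocyte markers had a positive log2 fold (median 0.16), as had all 8 meningeal markers, whose summed level was 267 to 307 CPM in wildtype and 370.3 to 459.5 in knockout libraries. Of 8 markers of mature oligodendrocytes 7 had a negative one (median -0.16), as had 6 of 8 endothelial markers, 3 of them at an unadjusted edgeR p under 0.05. Of pericyte markers 6 of 8 were negative, and of those of microglia and oligodendrocyte precursors 5 of 8 each. At that p 4 of 8 astrocyte and 5 of 8 meningeal markers were higher and 0 of either list lower. Over all genes tested 5.05% were higher and 5.58% lower. In the endothelial, pericyte, microglial and 2 oligodendrocyte lists, markers higher at that p were Ly6c1 of endothelium (log2 fold 0.38), Abcc9 (0.43) and Kcnj8 (0.49) of pericytes and Aif1 of microglia (0.88). Lower at it were 0 pericyte markers and 1 each of microglia, mature oligodendrocytes and oligodendrocyte precursors. Neocortical markers summed to 214 to 227 CPM in wildtype and 234 to 241 in knockout libraries, without overlap, while those of thalamus (201 to 210.5 and 204 to 210.2) and choroid plexus (30.7 to 71.9 and 35.9 to 45.2) overlapped. The neocortical list was split, with 5 of 8 markers at a positive and 3 at a negative log2 fold. Of these 8 markers 2 were higher at an unadjusted edgeR p under 0.05. No marker in these 12 lists was called with edgeR or at 0 in all libraries. DESeq2 called 9 of 95 markers, beside 1.25% of all the genes it tested. Of these 9 markers 3 were meningeal, 2 astrocytic, 2 of excitatory neurons (Calb1 and Grin2a), 1 endothelial (Ly6c1) and 1 microglial (Aif1). All but Grin2a of excitatory neurons had a positive log2 fold in edgeR. The part of these marker shifts in the channel values was not tested. In whole tissue, fewer cells of a type and less RNA per cell cannot be told apart.

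The channel genes differed little between the genotypes. Among the 28 read at 10 CPM or more, log2 folds ran from -0.21 (Cacna1g) to 0.15 (Scn3b), and none of the 35 channel genes tested passed an adjusted p of 0.05 in the quasi-likelihood test of edgeR. The lowest adjusted p among them was 0.250, that of Cacna1a, the pore subunit of P/Q-type calcium channels. No gene of the 16432 tested passed either, so percent called was 0. DESeq2 called 164 of 13109 genes, or 1.25%, and 1 channel gene, Cacna1a, with an adjusted p of 0.0183.

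At an unadjusted edgeR p under 0.05 there were 7 channel genes, 2 higher in knockout (Scn3b and Scn9a) against 5.05% of all genes tested, and 5 lower (Cacna1a, Cacna1g, Cacnb1, Cacng8 and Scn8a) against 5.58%. Genotypes did not overlap for 5 channel genes. The 3 knockout values of Scn3b all exceeded the 3 wildtype values, as for 8.29% of all genes, and those of Cacna1a, Cacnb1, Cacng8 and Scn8a all lay below, as for 8.34%. The gap between the nearest libraries of the 2 genotypes ran from 0.95% for Scn8a to 7.71% for Cacna1a. The median log2 fold of the 35 channel genes was -0.03, with 15 positive and 20 negative, beside 0.00 over all genes. By subfamily the median was -0.02 for sodium alpha, -0.05 for sodium beta, -0.06 for calcium alpha1, 0.05 for alpha2delta, -0.05 for calcium beta and -0.05 for gamma genes.

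**Figure D1:**
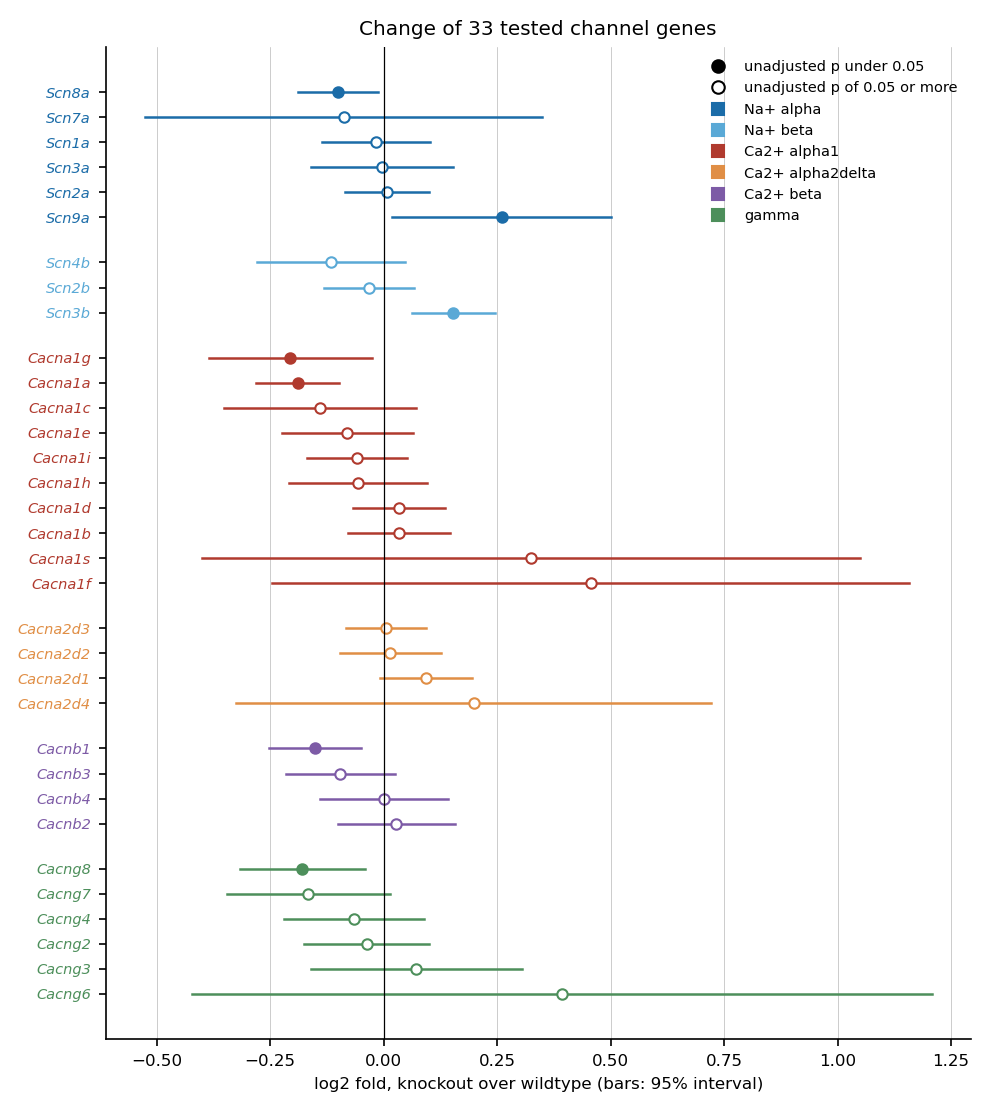
The log2 fold of knockout over wildtype (horizontal axis) for 33 of the channel genes tested, with its 95% interval from edgeR, grouped by subfamily. The intervals of Cacna1a, Cacna1g, Cacnb1, Cacng8, Scn8a, Scn3b and Scn9a lie to 1 side of 0, and those of the genes read at under 10 CPM, such as Cacna1f and Cacng6, are the widest.

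The members were ordered by level per length, in CPM per kilobase of exon, as the mean of the 6 libraries. Of the genes reported here, the small single-span beta subunits of sodium channels Scn3b and Scn2b had the highest levels. Scn3b had 84.4 CPM per kb (range 76.8 to 89.4) and Scn2b 63.8 (61.2 to 67.3), and each of these ranges lay apart from the next. Cacnb3 followed with 46.8, then Cacng7 with 39.1 and Scn8a with 38.5, whose ranges overlapped. Scn2a at 32.4 lay below Scn8a without overlap.

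Below these the ranges ran into each other. From Scn2a through Cacnb1 (29.8 CPM per kb), Cacna1e (28.4), Cacna2d1 (25.7), Cacng8 (22.9), Cacna1b (21.7), Cacna1h (21.2) and Cacna1a (19.5) to Cacnb4 (18.3), each gene overlapped the next. Cacnb4 lay above Cacna2d3 (16.2) without overlap. Over the whole order, 11 of 38 neighbouring pairs had ranges that did not overlap. Scn8a, Cacna1e, Cacna2d1, Cacnb3 and Cacng7 led their subfamilies, and did so too when the longest transcript gave the length. Other places in the order depended on the length used. With the longest transcript Cacna2d3 (38.3 CPM per kb) stood above Cacnb4 (20.0), and Cacnb3 (68.7) above Scn2b (63.8).

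At the other end stood channels known from muscle, retina and sensory neurons. The filter on low counts left out Scn4a, the skeletal muscle sodium channel (3 to 8 reads per library), Scn10a (0 to 2) and Scn11a (0 to 3) of peripheral sensory neurons, and Cacng1 of skeletal muscle (0 to 3). A count of 0 allows up to 3 reads. The other 35 were tested, of which 7 were read at under 10 CPM.

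**Figure D2:**
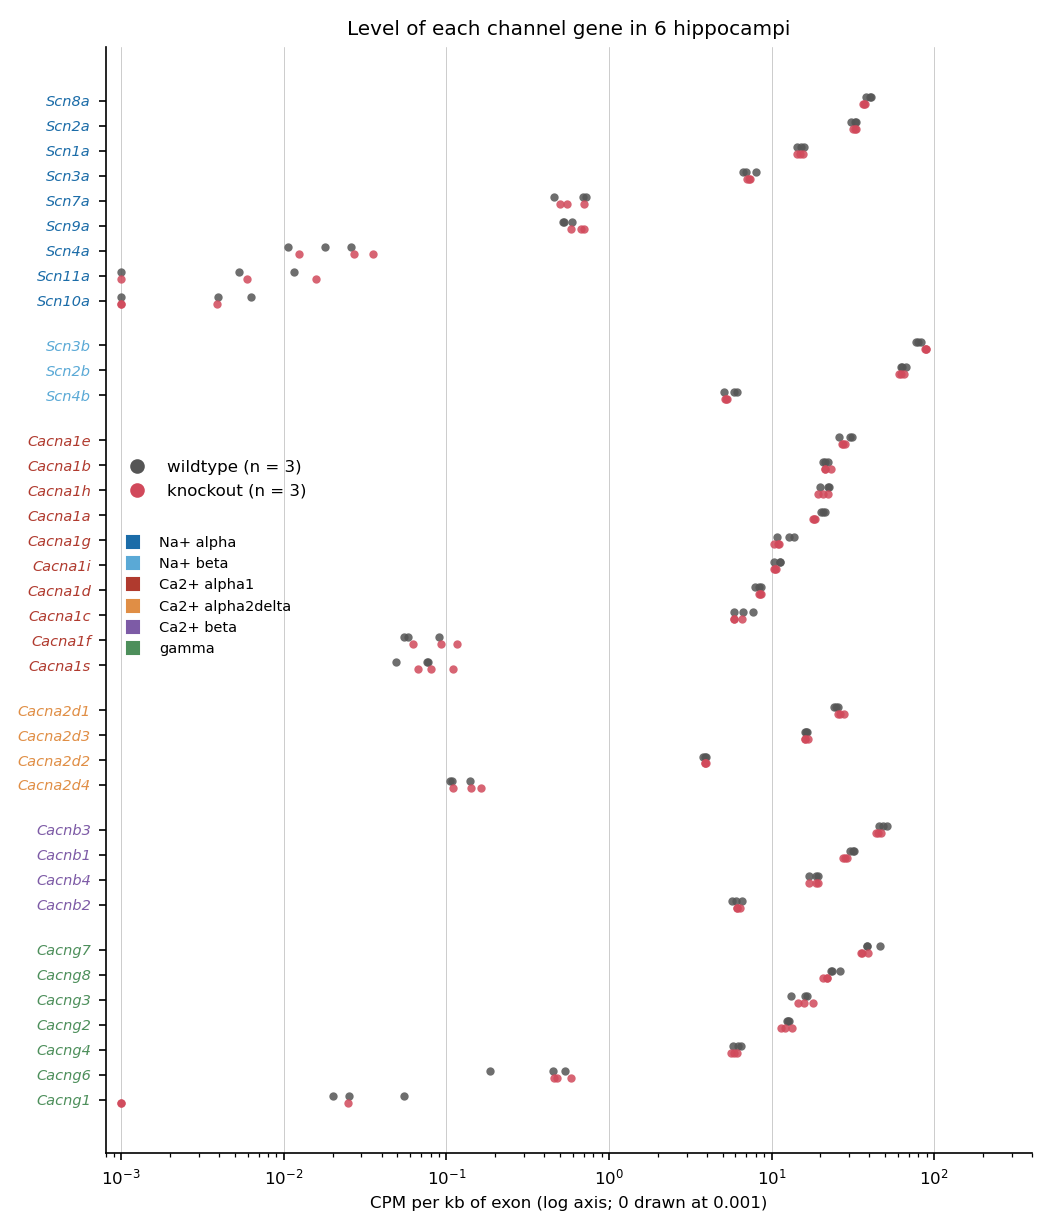
Level of 37 channel genes in CPM per kilobase of exon (log axis, 0 drawn at the left edge), with 1 point per library, wildtype in grey and knockout in red. Scn3b and Scn2b lie at the right with ranges that do not overlap, and Scn4a, Scn10a, Scn11a and Cacng1 lie at the left with a few reads each.

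Among the sodium channel alpha subunits, Scn8a (ENSMUSG00000023033, chromosome 15) encodes the main channel of the mature axon initial segment and nodes of Ranvier. Its levels were 644, 601 and 639.6 CPM in wildtype replicates 1 to 3 and 584, 595 and 579 in knockout replicates 1 to 3. All 3 knockout libraries lay below the wildtype libraries, the nearest by less than 1%. The log2 fold was -0.10 (SE 0.04, edgeR adjusted p = 0.422).

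Scn2a (ENSMUSG00000075318, chromosome 2), a channel of excitatory neurons, was at 393, 424 and 418 CPM in wildtype and 417, 419 and 405 in knockout libraries. The genotypes overlapped, with a log2 fold of 0.01 and a 95% interval from -0.09 to 0.10. Scn1a, known for its role in parvalbumin interneurons, had a log2 fold of -0.02 (interval -0.14 to 0.10). Scn3a, the channel of the embryonic and newborn brain, had 0.00 (-0.16 to 0.15).

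Other alpha genes were read at low levels. Scn9a (ENSMUSG00000075316, chromosome 2), best known from pain-sensing neurons, was at 6.70, 7.52 and 6.72 CPM in wildtype and 9.02, 7.48 and 8.55 in knockout libraries. Knockout replicate 2 lay within the wildtype range and the other two knockout libraries above it, with a log2 fold of 0.26 (SE 0.11, edgeR adjusted p = 0.442). Scn7a, a sodium sensor that voltage does not gate, had 4.57 ± 1.03 CPM in wildtype and 4.28 ± 0.75 in knockout libraries (SD, n = 3 each).

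Of the sodium channel beta subunits, Scn3b (ENSMUSG00000049281, chromosome 9), whose protein binds the alpha subunit without a disulfide bond, was at 419.5, 433 and 456 CPM in wildtype and 487, 481 and 488 in knockout libraries. All knockout libraries lay above all wildtype libraries, by 5.47% at the nearest. The log2 fold was 0.15 (SE 0.04, interval 0.06 to 0.25) with an adjusted p of 0.311 in edgeR and 0.0850 in DESeq2.

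Scn2b and Scn4b encode the beta subunits that are disulfide-linked to the pore. Scn4b (ENSMUSG00000046480, chromosome 9), known from fast-spiking neurons and resurgent current, was at 25.5, 29.2 and 30.3 CPM in wildtype and 26.4, 26.2 and 25.8 in knockout libraries. Wildtype replicate 1 was the lowest of all 6, so the genotypes overlapped, and the log2 fold was -0.12 (interval -0.28 to 0.05). Scn2b had a log2 fold of -0.03 (interval -0.13 to 0.07).

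Among the pore-forming alpha1 subunits of calcium channels, 3 form the Cav2 class of high-voltage channels, which serves transmitter release and dendritic calcium entry. Cacna1a (ENSMUSG00000034656, chromosome 8), the P/Q-type subunit, was at 245, 229 and 237 CPM in wildtype and 207, 211 and 206 in knockout libraries. Every knockout library lay below every wildtype library. The log2 fold was -0.19 (SE 0.04, interval -0.28 to -0.10), with an adjusted p of 0.250 in edgeR and 0.0183 in DESeq2. Leaving out single libraries gave log2 folds from -0.22 to -0.16.

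Cacna1b (ENSMUSG00000004113, chromosome 2), the N-type subunit that shares release sites with the P/Q-type, was at 221, 206 and 212 CPM in wildtype and 211, 232 and 212 in knockout libraries. The genotypes overlapped, with a log2 fold of 0.03 (interval -0.08 to 0.15). Cacna1e (ENSMUSG00000004110, chromosome 1), the R-type subunit, was at 785, 656 and 767 CPM in wildtype and 683, 694 and 711 in knockout libraries. Wildtype replicate 2 was the lowest and the other two wildtype libraries the highest, and the log2 fold was -0.08 (interval -0.22 to 0.06).

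T-type subunits open near the resting potential and support burst firing. Cacna1g (ENSMUSG00000020866, chromosome 11) was at 139, 110.1 and 129 CPM in wildtype and 104, 111 and 112 in knockout libraries. Wildtype replicate 2 lay among the knockout libraries, and the log2 fold was -0.21 (SE 0.08, edgeR adjusted p = 0.419). It was -0.13 without wildtype replicate 1 and -0.30 without wildtype replicate 2. Cacna1h and Cacna1i had log2 folds of -0.06 (interval -0.21 to 0.09) and -0.06 (interval -0.17 to 0.05).

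The L-type subunits couple calcium entry to gene expression in neurons. Cacna1c had 143 ± 20.0 CPM in wildtype and 129.5 ± 7.91 in knockout libraries (SD, n = 3 each), a log2 fold of -0.14 (interval -0.35 to 0.07). Cacna1d, the L-type subunit that opens at lower voltage, had 0.03 (interval -0.07 to 0.13). The retinal Cacna1f and the muscle Cacna1s were read at under 1 CPM on average in both genotypes. Of the exon bases of Cacna1s, 20.0% overlap a gene on the opposite strand, as do 16.0% of those of Cacnb4, and the strand setting of the counting is not given in the sources used here.

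All 4 alpha2delta genes had a positive log2 fold, and none had an unadjusted p under 0.05. Cacna2d1 (ENSMUSG00000040118, chromosome 5), a target of gabapentin, was at 307, 302 and 317 CPM in wildtype and 316, 347 and 326 in knockout libraries. Knockout replicate 2 was the highest, knockout replicate 1 lay just inside the wildtype range, and the log2 fold was 0.09 (interval -0.01 to 0.19). Cacna2d3 (ENSMUSG00000021991, chromosome 14) was at 144, 139 and 141 CPM in wildtype and 140.4, 140.0 and 145 in knockout libraries, which overlapped, with a log2 fold of 0.01 (interval -0.08 to 0.09).

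Cacna2d2, which gabapentin also binds, had a log2 fold of 0.01 (interval -0.10 to 0.13). Cacna2d4 (ENSMUSG00000041460, chromosome 6), known from the retina, was at 1.02, 1.33 and 1.00 CPM in wildtype and 1.34, 1.56 and 1.03 in knockout libraries. The genotypes overlapped and the interval of its log2 fold, -0.32 to 0.72, contained the folds of the other 3.

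Of the cytoplasmic beta subunits of calcium channels, Cacnb3 (ENSMUSG00000003352, chromosome 15) was at 205, 195 and 182 CPM in wildtype and 189, 181 and 175 in knockout libraries. Knockout replicate 1 lay above wildtype replicate 3, and the log2 fold was -0.10 (interval -0.22 to 0.02). Cacnb1 (ENSMUSG00000020882, chromosome 11), which also serves the skeletal muscle channel, was at 144, 145 and 137 CPM in wildtype and 132, 127 and 124 in knockout libraries. The genotypes did not overlap, with a log2 fold of -0.15 (SE 0.04, edgeR adjusted p = 0.331).

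Cacnb4, the gene mutated in the ataxic lethargic mouse, had a log2 fold of 0.00 (interval -0.14 to 0.14). Cacnb2, a beta subunit also used in the heart, had 0.03 (interval -0.10 to 0.16).

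Among the gamma genes, Cacng7 (ENSMUSG00000069806, chromosome 7), a TARP, was at 94.2, 114 and 94.96 CPM in wildtype and 96.3, 86.1 and 87.7 in knockout libraries. Knockout replicate 1 lay within the wildtype range, and the log2 fold was -0.17 (interval -0.35 to 0.01). Cacng8 (ENSMUSG00000053395, chromosome 7), the TARP enriched in the hippocampus, was at 61.7, 55.0 and 54.5 CPM in wildtype and 51.6, 51.6 and 48.3 in knockout libraries. All 3 knockout libraries lay below the wildtype libraries, by 5.33% at the nearest, with a log2 fold of -0.18 (SE 0.06, edgeR adjusted p = 0.367).

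The other TARP genes had intervals that spanned 0. Cacng2, which encodes stargazin, had a log2 fold of -0.04 (interval -0.18 to 0.10), Cacng3 0.07 (-0.16 to 0.30) and Cacng4 -0.07 (-0.22 to 0.09). Cacng6, a relative of the muscle gene Cacng1, was read at 0.78 ± 0.37 CPM in wildtype and 1.00 ± 0.13 in knockout libraries (SD, n = 3 each).

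**Figure D3:**
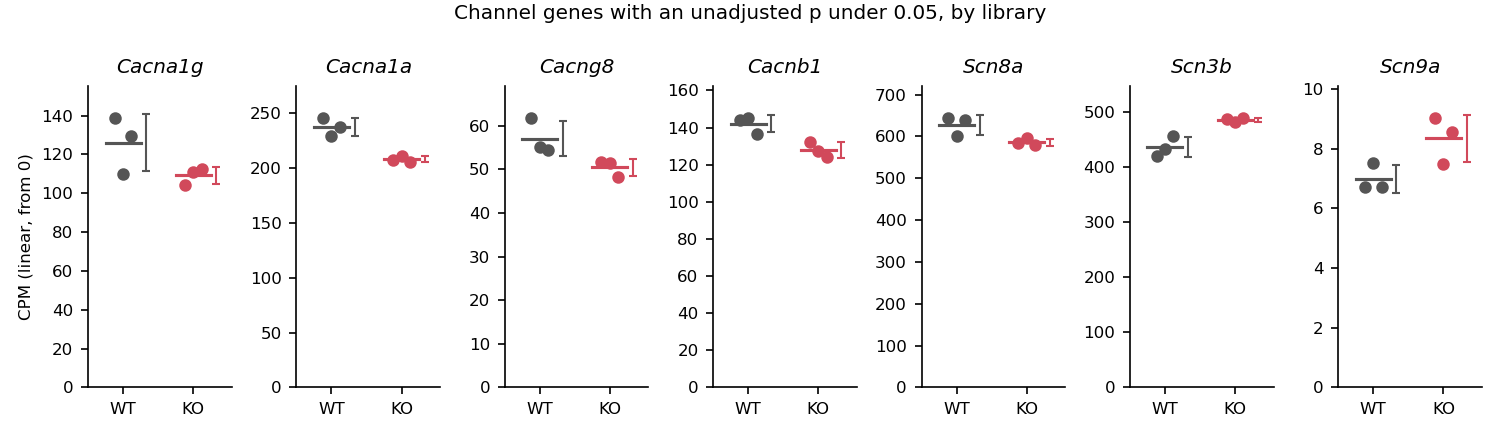
CPM in each library for the 7 channel genes with an unadjusted edgeR p under 0.05, wildtype in grey and knockout in red, on linear axes from 0, with the mean as a line and the SD as a bar (n = 3). Cacna1a, Cacng8, Cacnb1, Scn8a and Scn3b show no overlap, while wildtype replicate 2 of Cacna1g and knockout replicate 2 of Scn9a lie within the other genotype's range.

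The make-up of each calcium channel subfamily, as each gene's share of the summed CPM per kilobase, was close in the 2 genotypes. Cacna1a held 15.8 ± 0.34% of the alpha1 level in wildtype and 14.6 ± 0.050% in knockout libraries (SD, n = 3 each), while Cacna1b held 16.3 ± 0.37% and 17.6 ± 0.72%. Cacnb1 held 30.1 ± 0.27% and 28.8 ± 0.37% of the calcium beta level. Cacna1d held 6.31 ± 0.11% and 6.81 ± 0.070% of the alpha1 level. Within the calcium channel subfamilies the shares of Cacna1a, Cacna1b, Cacna1d and Cacnb1 did not overlap between genotypes. A share within a subfamily has no counterpart over all genes. In CPM, 8.29% of all genes tested lay apart as higher and 8.34% as lower in knockout libraries. The CPM of Cacna1b and Cacna1d overlapped, with a log2 fold of 0.03 each. The summed alpha1 level was 131.5 ± 7.42 CPM per kb in wildtype and 124.6 ± 1.49 in knockout libraries. These shares use the same counts as the folds above.

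**Figure D4:**
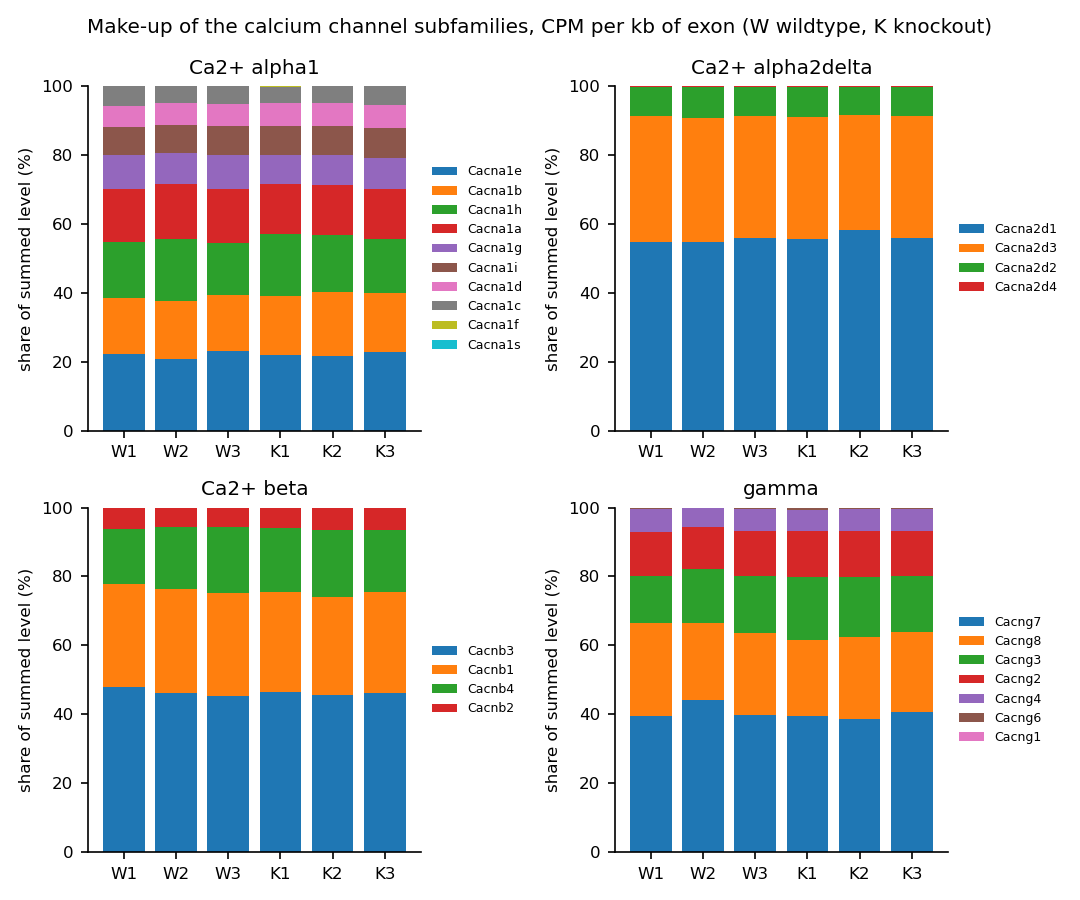
Share of each gene (stacked, percent) in the summed CPM per kilobase of its calcium channel subfamily, 1 bar per library. Cacna2d1 makes up the largest share of alpha2delta subunits in all 6 libraries and Cacnb3 that of beta subunits, and the bars of the 2 genotypes are close.

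The folds of all genes moved with base composition. In 4 bins of equal size, from the lowest GC content of the longest transcript to the highest, the median log2 fold was 0.06, 0.02, -0.02 and -0.07. Of the 13 tested channel genes in the highest bin 11 had a negative fold, and all 5 channel genes lower at an unadjusted p under 0.05 were among the 23 above the median GC content. The 2 that were higher, Scn3b and Scn9a, were among the 12 at or below it. Above the median GC content 16 of the 23 channel genes, and 5193 of 7900 genes in all, had a negative log2 fold. At an unadjusted edgeR p under 0.05, 712 of the 7900 genes above it were lower (9.01%) and 152 higher, and of the 7901 at or below it 182 were lower and 655 higher (8.29%).

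With per-library offsets for GC content and length, 7.31% of all genes had an unadjusted edgeR p under 0.05, and 1 channel gene did, Scn3b, with a log2 fold of 0.14. Under these offsets the log2 fold was -0.09 for Cacna1a, -0.11 for Cacna1g, -0.05 for Cacnb1, -0.02 for Cacng8 and -0.06 for Scn8a. Whether the relation to GC content arose in the tissue or in the libraries was not tested.

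**Figure D5:**
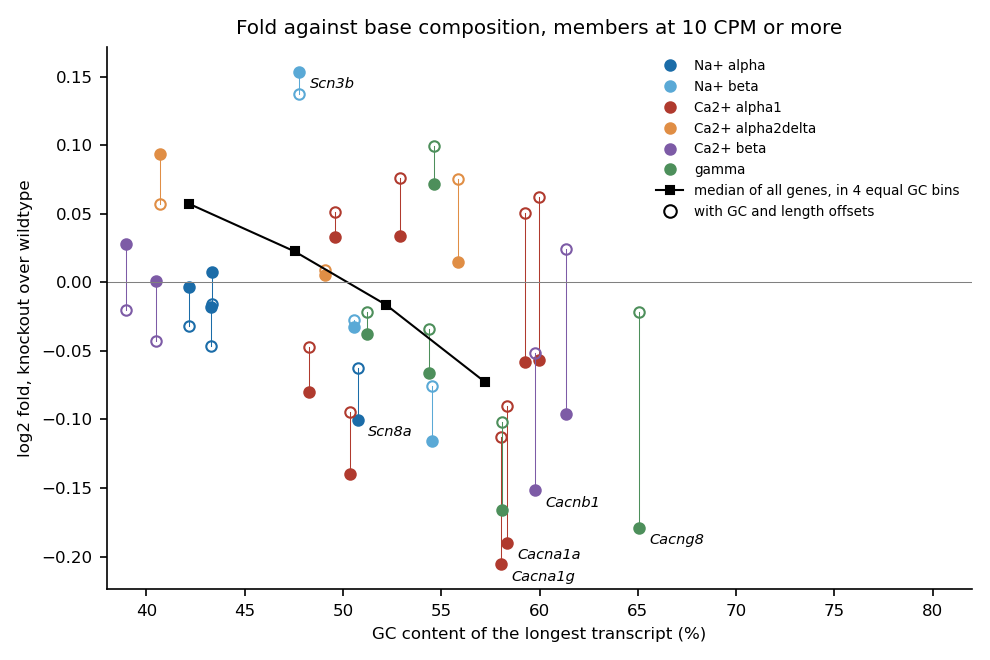
Log2 fold of knockout over wildtype against GC content of the longest transcript for 27 channel genes read at 10 CPM or more (filled points), and the same with GC and length offsets (open points, joined by a line). Black squares give the median of all genes in 4 bins of GC content, from 0.06 down to -0.07, and the labelled genes are those with an unadjusted p under 0.05.

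MicroRNAs pair with sites in the 3' UTR through their seed, so the mature sequences of the cluster are shown here against the sites of the channel genes. They are from RefSeq on GRCm38.p6, plus strand of chromosome 14, written 5' to 3' with the seed (bases 2 to 8) in capitals. miR-17 and miR-20a share a seed, and so do miR-19a and miR-19b, which gives 4 seed families.
miR-17-5p (chr14:115043684-115043706): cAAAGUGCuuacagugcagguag
miR-20a-5p (chr14:115044183-115044205): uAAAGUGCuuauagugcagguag
miR-18a-5p (chr14:115043867-115043889): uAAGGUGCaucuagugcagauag
miR-19a-3p (chr14:115044048-115044070): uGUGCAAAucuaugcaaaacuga
miR-19b-3p (chr14:115044358-115044380): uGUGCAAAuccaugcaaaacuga
miR-92a-3p (chr14:115044476-115044496): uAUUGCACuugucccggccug

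Sites of 7 bases were searched on the transcript strand of the longest 3' UTR of each gene in GENCODE M21. The motifs were GCACTTT and CACTTTA for miR-17 and miR-20a, GCACCTT and CACCTTA for miR-18a, TTTGCAC and TTGCACA for miR-19a and miR-19b, and GTGCAAT and TGCAATA for miR-92a. Overlapping motifs were counted as 1 site of 8 bases. Of the 35 tested channel genes 23 held a site, or 65.7%, beside 46.1% of the 14518 tested genes with a 3' UTR. The channel genes had longer 3' UTRs, with a median of 2132 bases beside 1192, and held 0.61 sites per kilobase beside 0.51. The median log2 fold was -0.03 both for the 23 with a site and for the 12 without.

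Sites of 8 bases were found in 8 tested channel genes, and those of 7 are printed with the matched bases in capitals, 8 flanking bases to each side, since they include sites of 3 of the 7 genes with an unadjusted p under 0.05. The share of all genes with such a site was 4.42% for miR-17 and miR-20a, 1.65% for miR-18a, 5.89% for miR-19a and miR-19b and 2.77% for miR-92a. For any seed family it was 13.3%, beside 22.9% of the tested channel genes.
Scn1a, miR-17 and miR-20a: agtttgcaGCACTTTAacaatgtt
Scn1a, miR-18a: ggcatgttGCACCTTAggatcatg
Cacna1c, miR-18a: caaatttgGCACCTTAaatccccc
Cacna1c, miR-19a and miR-19b: aacagtcaTTTGCACAtgttctgt
Cacng7, miR-19a and miR-19b: ccattctcTTTGCACAccaccagg
Cacng8, miR-19a and miR-19b: gtctctgcTTTGCACActtgcatg
Scn3b, miR-92a: tgttctaaGTGCAATAttctttag
Scn8a, miR-92a: gttccaatGTGCAATAaattctaa
Cacna1i, miR-92a: tggtctttGTGCAATAatcaacgt

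Among the 8 genes Scn3b alone had a positive log2 fold, 0.15, and the median of the 8 was -0.08. It was 0.00 for the 27 without such a site and 0.01 for the 1936 genes in all that held one. Cacna1c and Scn8a held the most sites of the channel genes, 6 each, and had log2 folds of -0.14 and -0.10. Scn1a held 5 and had -0.02, and Cacna2d1 held 4 and had 0.09. Of the other genes with an unadjusted p under 0.05, Scn9a held 2 sites, and Cacna1a, Cacna1g and Cacnb1 held none. With GC and length offsets, of the genes with a site of 8 bases printed above, Scn3b (0.14) and Cacna1i (0.05) had positive log2 folds. Cacng7 (-0.10), Cacna1c (-0.09), Scn8a (-0.06), Scn1a (-0.05) and Cacng8 (-0.02) had negative ones. A match is a description of the letters and not a measured site of binding.

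Proteins that anchor, tune or use these channels were listed by name as 18 sodium channel partners, 33 calcium channel partners and 13 AMPA receptor genes and partners. With edgeR none was called. Of the 18 sodium channel partners 2 were higher and 2 lower at an unadjusted edgeR p under 0.05. Of the 32 calcium channel partners tested 4 were higher and 3 lower, and of the 13 AMPA receptor genes and partners none was either. Over all genes tested 5.05% were higher and 5.58% lower at this p, and DESeq2 called 1.25%. The median log2 folds of the 3 lists were 0.02, -0.02 and 0.02.

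Among the sodium channel partners Pkp2, a desmosome protein, had 43.8 ± 2.38 CPM in wildtype and 52.3 ± 2.83 in knockout libraries (SD, n = 3 each), a log2 fold of 0.25 with an adjusted p of 0.285 in edgeR and 0.0473 in DESeq2. Fgf13, which binds the tail of alpha subunits, had a log2 fold of 0.13 (SE 0.04), and Sptbn4, the spectrin of the axon initial segment, -0.13 (SE 0.05). With GC and length offsets the log2 fold was 0.25 for Pkp2, 0.09 for Fgf13 and 0.03 for Sptbn4.

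Among the calcium channel partners Rimbp2, which tethers presynaptic calcium channels to release sites, was at 160 ± 9.71 CPM in wildtype and 136 ± 7.69 in knockout libraries (SD, n = 3 each). Its log2 fold was -0.23 with an adjusted p of 0.291 in edgeR and 0.0358 in DESeq2. Thbs2, an astrocyte-secreted ligand of alpha2delta subunits, had 5.37 ± 0.48 and 7.59 ± 0.31 CPM, a log2 fold of 0.50 with adjusted p of 0.250 and 0.0498 in the 2 tools. Cabp1, a calcium-binding regulator of P/Q- and L-type channels, had a log2 fold of -0.16 (SE 0.05). With GC and length offsets the log2 fold was -0.19 for Rimbp2, 0.50 for Thbs2 and -0.13 for Cabp1.

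Of the AMPA receptor genes and partners that TARPs work with, Gria2 and Gria3, which encode receptor subunits, had log2 folds of 0.09 (SE 0.04) and 0.06 (SE 0.04). With GC and length offsets these were 0.02 and 0.01. Cnih2, an auxiliary subunit found in hippocampal receptors, had -0.10 (SE 0.05) and, with GC and length offsets, 0.03.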

How the data were processed

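Hippocampal RNA of 6 mice was sequenced. The authors deposited a table of raw counts of reads by gene for each mouse. The submitters' processing notes name build mm9 and the tools STAR 2.3.0e, FastQC 0.10.1, HTSeq, SAMtools and DESeq2. Annotation and strandedness were not stated. Of each table, 5 closing rows name no gene. They held 38.0% to 40.3% of reads and were left out. Names, exon lengths, GC content and 3' UTRs came from GENCODE M21 (GRCm38), so no gene coordinates are given, and 32897 identifiers matched a name.

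All genes and 6 libraries were fitted with edgeR 4.0.16 in R 4.3.3 (quasi-likelihood, filterByExpr, TMM scaling), with p-values adjusted by Benjamini-Hochberg at 0.05. CPM values use TMM library sizes, intervals cover 95%, and the script was tested on simulated counts. P-values set the genotype difference against the spread between mice of the same genotype, moderated over all genes. They rest on these 6 mice alone. DESeq2 1.42.0, limma-voom 3.58.1, other scalings and filters, a robust fit, GC and length offsets (mgcv 1.9.3), a replicate block and leaving out each library were tried. Since each mouse had its own litter, a replicate number links no wildtype mouse to a knockout mouse.

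Members and lists were chosen with earlier results of these data known. Of the members 2 are counted but not reported here, and every other is named. In each subfamily the 2 with the highest level per length and the 2 with the smallest p are given by library, and of each partner list the 3 with the smallest p. Marker lists (excitatory and inhibitory neurons, astrocytes, oligodendrocytes and their precursors, microglia, endothelium, pericytes, meninges, choroid plexus, neocortex, thalamus) are given as counts or ranges.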

Additional observations from a re-analysis of the deposited data

How the results depend on the processing

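Over 492 values of 33 tested channel genes under 15 other fits, 462 kept direction and side of the threshold, 29 turned in direction and 1, Cacna1a with DESeq2, passed the threshold. There were 20 channel genes that kept their direction in every fit. Genes called came to 164 with DESeq2, 15 with the robust fit and 62 without a filter. With 1 library left out they ran from 0 to 17, with 2 called without wildtype replicate 1 or knockout replicate 1, 16 without wildtype replicate 2 and 17 without knockout replicate 3. Channel genes called numbered 1 with DESeq2. Those lower at an unadjusted p under 0.05 numbered 0 with GC and length offsets, and 3 (without knockout replicate 3) to 7 with 1 library left out. Those higher numbered 1 with DESeq2, 1 with offsets, 1 with the replicate block and 1 to 2 with 1 library left out (1 without wildtype replicate 1, wildtype replicate 3 or knockout replicate 3). The replicate block called 0 genes. Deviations of log CPM from the genotype mean had correlations of -0.10, -0.02 and -0.15 between same-numbered mice of the 2 genotypes. Between differently numbered mice these ran from -0.08 to 0.17. Counting only sites of 8 bases left 8 channel genes with a seed site. The cause of these differences was not tested.

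With offsets the median log2 fold was 0.0511 for calcium alpha1 and 0.0227 for sodium beta genes. With 1 library left out it was -0.0269 to 0.0202 (without wildtype replicate 2) for sodium alpha, -0.0626 to -0.0126 (without wildtype replicate 1) for sodium beta, -0.0688 to -0.0247 (without wildtype replicate 1) for calcium alpha1, -0.0812 (without wildtype replicate 3) to -0.0159 (without knockout replicate 3) for calcium beta and -0.0996 (without knockout replicate 1) to -0.00842 (without knockout replicate 3) for gamma genes. Log2 folds that turned with offsets were those of Cacna1h (0.0621), Cacna1i (0.0508), Cacnb3 (0.0242), Cacnb2 (-0.0200), Scn2a (-0.0161), Cacnb4 (-0.0429), Cnih2 (0.0269) and Sptbn4 (0.0345). Cacnb4 also turned with upper quartile factors (-0.00284), limma-voom (-0.00363), no filter (-0.000134) and a filter of 1 CPM in 3 libraries (-0.000792), and Scn3a with limma-voom (0.00233). With 1 library left out, log2 folds that turned ran over these ranges, namely Cacna1b (-0.00955 to 0.0615), Cacna2d3 (-0.0136 to 0.0162), Cacnb2 (-0.0219 to 0.0804), Cacnb4 (-0.0472 to 0.0531), Cacng2 (-0.104 to 0.0162), Cacng3 (-0.0242 to 0.145), Scn1a (-0.0598 to 0.0202), Scn2a (-0.0242 to 0.0288), Scn3a (-0.0606 to 0.077) and Scn7a (-0.26 to 0.0246).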
